A study of Mus musculus with 6 samples.

Results

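Transcripts of 10 genes for peroxiredoxin, thioredoxin and superoxide defence were examined in D10 T cells with and without cold acclimation. The genes were given by name and matched by symbol: Prdx1, Prdx2, Prdx3, Prdx5 and Prdx6 (peroxiredoxins), Txn1 (thioredoxin), Txnrd1 (thioredoxin reductase), Sod1 and Sod2 (superoxide dismutases) and Cat (catalase). They are 10 of 41079 listed genes, and all 10 were among the 12227 genes with a mean of at least 1 TPM (a transcript level per gene length and library total) that were tested. The lowest value of any of them in any library was 10.6 TPM, so none entered the test through 1 condition alone.

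The cells were D10, a cloned conalbumin-specific CD4+ helper T cell line of the mouse that is kept in culture with IL-2, so they stand for 1 clone. Cold-acclimated cells were held at 26°C for 24 h and non-acclimated cells at 37°C for 24 h, with no other agent named for either condition. Poly(A)+ RNA of 3 biological replicates per condition was sequenced, which gave 6 libraries, and the study asked which transcripts accompany cold acclimation. RNA was extracted in batches called old and new in the labels, which do not assign the libraries to them.

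Superoxide leaks from the respiratory chain and is also made by NADPH oxidases. Superoxide dismutases turn it into hydrogen peroxide, Sod1 mainly in the cytosol and Sod2 in the mitochondrial matrix, and the peroxide is then broken down by catalase in peroxisomes or reduced by peroxiredoxins. Most peroxiredoxins are returned to their active form by thioredoxin, which thioredoxin reductase recharges with electrons from NADPH, and in T cells hydrogen peroxide also serves as a signal after antigen receptor engagement.

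Reads recovered from the TPM steps numbered between 16899628 and 31290854 per library, and the 10 genes rested on 243 (Cat) to 13296 (Prdx1) reads in a library. Over all 12227 tested genes the median log2 fold change, cold-acclimated against non-acclimated, was -0.34 with TPM as deposited and 0.03 after median of ratios scaling, in which each library is divided by its median ratio to the genes' geometric means. Of the T cell markers, 7 of 8 had a mean of at least 1 TPM, whereas Thy1 was listed at 0 in all 6 libraries. Cd4 was at 1.09, 0.0351 and 310 TPM in replicates 1, 2 and 3 at 37°C and at 1.30, 0.352 and 328 TPM at 26°C, so the defining marker was near 0 in replicates 1 and 2 of both conditions. The libraries of replicate 3 thus stood apart, and genes called with TPM as deposited are also given without them. Calls that arose only after another scaling or with a replicate term were not refitted without them. None of 6 B cell markers reached a mean of 1 TPM, and 2 of 6 macrophage and monocyte markers did (Lyz2 and Cd68), with summed levels of 2.46 to 15.9 TPM at 37°C and 2.69 to 21.2 TPM at 26°C.

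With TPM as deposited, transcripts of Cat and of Prdx3, 1 of the peroxiredoxins found in mitochondria, were called lower after cold acclimation. The call of Prdx3 was lost after median of ratios scaling (limma adjusted p = 0.082). The study's methods name this kind of scaling for their own test. Cat fell 3.32-fold and Prdx3 fell 3.16-fold on the log2(TPM + 1) scale, and these were the 2 genes of the 10 called lower with limma (adjusted p under 0.05 over all tested genes). Of all tested genes, 17.4% were called lower and 3.3% higher, so 2 of 10 members called lower was near the share over all genes. Both also changed by 1 or more on the log2 scale, a stricter call that 16% of all tested genes met in the lower and 2.63% in the higher direction. No member was called higher with TPM as deposited, whereas Sod2 and Prdx6 were called higher, and Cat alone lower, after median of ratios scaling, where 8.64% of all tested genes were called higher and 9.32% lower. With limma voom on the recovered reads the same 3 members passed, against 7.97% of all tested genes higher and 9.38% lower. Combining median of ratios scaling with the replicate number as a term, a choice made after seeing the data, added Prdx5 and Txn1 to the genes that rose and Prdx3 to those that fell, where 16.9% of all tested genes were called in each direction. The most abundant transcripts, those of Sod1 and Txn1, did not pass the test in either direction under either scaling without that term.

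**Figure D1:**
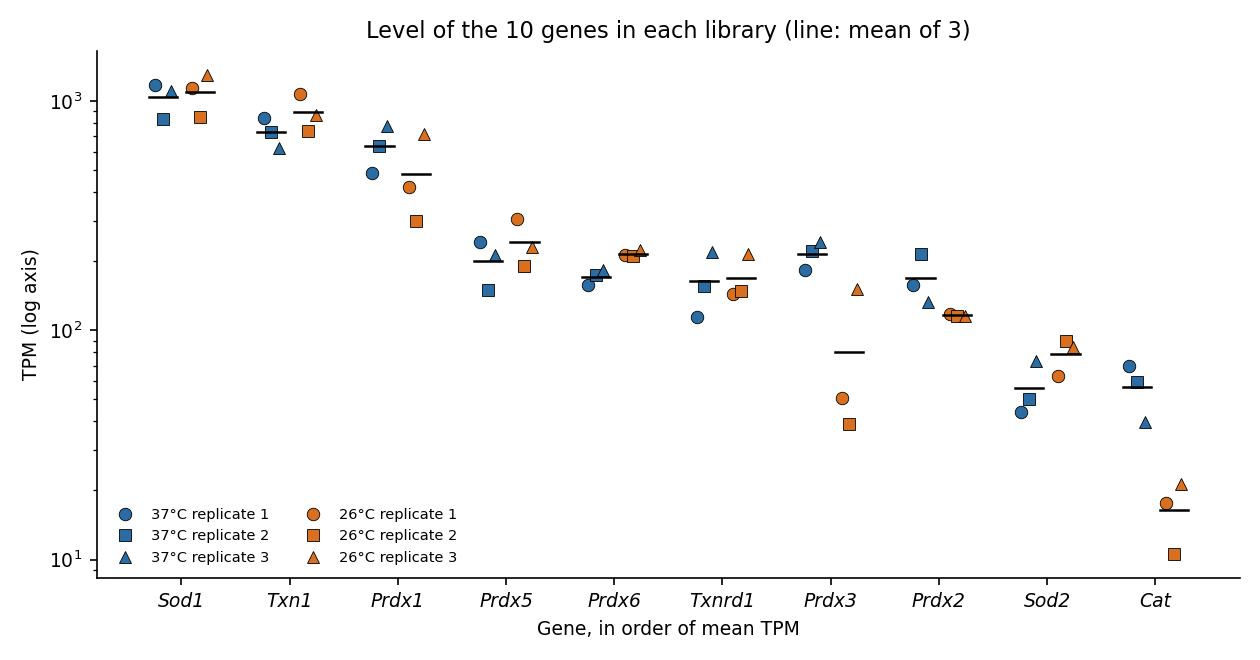
Level of each of the 10 genes in TPM (log axis) in the 3 non-acclimated (37°C, blue) and 3 cold-acclimated (26°C, orange) libraries, with the marker shape giving the replicate and the line the mean. All orange points of Cat and Prdx3 lie below the blue ones, and for Prdx3 the 26°C library of replicate 3, at 152 TPM, is close to the lowest 37°C library, at 184 TPM.

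Among the superoxide dismutases, Sod1, the copper and zinc enzyme, gave the highest mean level of the 10 genes. Its level was 1177, 834 and 1100.0 TPM in non-acclimated replicates 1, 2 and 3 and 1136, 850.1 and 1301 TPM in the cold-acclimated ones. Replicate 2 was the lowest library in both conditions, and the conditions overlapped. The log2 fold change of Sod1 was 0.07 (standard error, SE, 0.27, 95% confidence interval -0.55 to 0.69, limma adjusted p = 0.88), and its sign turned to -0.01 with quantile normalization.

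Sod2, the manganese enzyme of mitochondria, was at 44.0, 49.9 and 73.6 TPM without and at 63.1, 89.3 and 84.1 TPM with cold acclimation. It was higher at 26°C within each replicate number, although the conditions overlapped because non-acclimated replicate 3 exceeded cold-acclimated replicate 1. The log2 fold change was 0.51 (SE 0.27, 95% confidence interval -0.13 to 1.15, limma adjusted p = 0.22) with TPM as deposited. After median of ratios scaling the difference was 0.92 (95% confidence interval 0.31 to 1.53) and passed the test narrowly, with an adjusted p of 0.0494 in limma.

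Cat encodes catalase, which breaks down hydrogen peroxide in peroxisomes without needing a reductant. Its level was 69.9, 59.6 and 39.8 TPM in replicates 1, 2 and 3 at 37°C and 17.6, 10.6 and 21.3 TPM at 26°C. Every cold-acclimated library lay below every non-acclimated one, and the condition means were 16.5 ± 5.44 and 56.4 ± 15.3 TPM (SD, n = 3 each). Cat had the largest change of the 10 genes, with a log2 fold change of -1.73 (SE 0.34, 95% confidence interval -2.51 to -0.95, limma adjusted p = 0.016). Median of ratios scaling gave -1.33 (limma adjusted p = 0.032). The call was lost when non-acclimated replicate 1 or 2 or cold-acclimated replicate 1 or 2 was left out, with adjusted p of 0.062, 0.070, 0.057 and 0.0544 in limma. Without replicate 3 in both conditions the log2 fold change was -2.16 (limma adjusted p = 0.0058).

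Catalase and Prdx2 proteins are known to be abundant in red blood cells. Of the erythroid markers, Hbb-bs, Hbb-bt and Slc4a1 were listed at 0 in all 6 libraries, and only Hba-a1 reached a mean of 1 TPM. The summed level of the erythroid markers was 80.9 to 487 TPM at 37°C and 61.4 to 475 TPM at 26°C. Hba-a1 had a log2 fold change of -0.52 and was not called (limma adjusted p = 0.71). Its part in the results for Cat and Prdx2 was not tested. In bulk RNA, fewer cells of a type and less RNA per cell cannot be told apart.

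Prdx3 is the peroxiredoxin of the mitochondrial matrix. It was measured at 184, 221 and 243 TPM without and at 50.6, 39.1 and 152 TPM with cold acclimation. The conditions did not overlap, but cold-acclimated replicate 3 stood 1.76 on the log2 scale above the mean of the other 2 cold-acclimated libraries, whereas the corresponding gap at 37°C was 0.27. The log2 fold change was -1.66 (SE 0.48, 95% confidence interval -2.77 to -0.55, limma adjusted p = 0.046), and the differences on the log2(TPM + 1) scale within replicates 1, 2 and 3 were -1.84, -2.47 and -0.68. After median of ratios scaling the difference was -1.25 and no longer passed (limma adjusted p = 0.082). It also did not pass without the filter on low values (limma adjusted p = 0.10) or when any library other than cold-acclimated replicate 3 was left out (adjusted p of 0.097 to 0.15 in limma). Leaving out cold-acclimated replicate 3 alone gave an adjusted p of 0.0026, and leaving out replicate 3 in both conditions gave a log2 fold change of -2.15 (adjusted p = 0.0039), both in limma.

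On GRCm39, the build of the deposited values, Cat lies on the minus strand of chromosome 2 (103284249 to 103315498) with 13 exons in its canonical transcript, and Prdx3 on the minus strand of chromosome 19 (60852504 to 60862976) with 7. No second genome site matched the canonical transcript of either gene at 95% identity or more over at least 150 bases. The 250 bases before the start site of both genes are shown because these are the genes that fell. They are from RefSeq on GRCm38.p6, an older build than that of the values, and are read along the gene. Capitals mark matches on either strand to the CCAAT box (CCAAT) and the GC box (GGGCGG).
Cat (chr2:103485154-103485403, minus strand): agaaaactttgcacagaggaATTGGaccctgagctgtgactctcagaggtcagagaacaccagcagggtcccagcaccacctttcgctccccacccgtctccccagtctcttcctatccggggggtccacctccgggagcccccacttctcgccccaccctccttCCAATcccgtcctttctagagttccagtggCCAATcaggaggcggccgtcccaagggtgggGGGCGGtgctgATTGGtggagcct
Prdx3 (chr19:60874539-60874788, minus strand): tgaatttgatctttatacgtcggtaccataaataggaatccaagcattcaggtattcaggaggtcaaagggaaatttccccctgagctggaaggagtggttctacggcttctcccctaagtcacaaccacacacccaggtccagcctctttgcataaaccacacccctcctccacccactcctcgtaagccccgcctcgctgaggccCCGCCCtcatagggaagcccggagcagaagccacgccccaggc
The Cat promoter held 4 CCAAT boxes and 1 GC box, and the Prdx3 promoter 1 GC box. At least 1 CCAAT box was found in 33.8% of the 32851 promoters of the same length in the table, and 4 or more in 0.84%, whereas 32.7% held a GC box. The forkhead motif TGTTTAC (3.17% of promoters) and the E-box CACGTG (6.02%) were in neither window, nor in those of the other members with an entry. These matches describe the letters and do not show that a site is bound.

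None of the other 4 peroxiredoxins passed the test with TPM as deposited. Prdx5, which is found in mitochondria, peroxisomes and the cytosol, was at 242, 149 and 213 TPM without and 304, 191 and 232 TPM with cold acclimation. It was higher at 26°C within each replicate number, with overlap between the conditions, and its log2 fold change was 0.27 (SE 0.28, 95% confidence interval -0.39 to 0.92, limma adjusted p = 0.53). After median of ratios scaling it was 0.68 (limma adjusted p = 0.14).

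Prdx6 differs from the other 4 in using glutathione in place of thioredoxin, and it also has phospholipase activity. Its level was 157, 174 and 183 TPM at 37°C and 212, 209.7 and 224 TPM at 26°C. The 3 cold-acclimated libraries were all above the 3 non-acclimated ones, with means of 215 ± 7.77 and 171 ± 13.2 TPM (SD, n = 3 each). Of all tested genes, 9.69% likewise had no overlap and were higher. The log2 fold change was 0.33 (SE 0.20, 95% confidence interval -0.13 to 0.79, limma adjusted p = 0.26) with TPM as deposited, and 0.74 (95% confidence interval 0.31 to 1.18, limma adjusted p = 0.036) after median of ratios scaling.

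Prdx1 and Prdx2 encode the cytosolic peroxiredoxins, which take their electrons from thioredoxin. Prdx1 was at 486, 639 and 780.5 TPM at 37°C and at 422, 298 and 719.6 TPM at 26°C. Replicate 3 was the highest library in both conditions, and the conditions overlapped. The log2 fold change of Prdx1 was -0.47 (SE 0.36, 95% confidence interval -1.31 to 0.37, limma adjusted p = 0.38) and -0.06 after median of ratios scaling. Prdx2 was at 157, 215 and 132 TPM at 37°C and at 118, 115 and 115 TPM at 26°C. Its conditions did not overlap, and the SD was 1.70 TPM over the cold-acclimated and 42.6 TPM over the non-acclimated libraries (n = 3 each). Together with Cat and Prdx3 this made 3 members lower without overlap, against 31.4% of all tested genes. The log2 fold change of Prdx2 was -0.50 (SE 0.24, 95% confidence interval -1.06 to 0.06, limma adjusted p = 0.17) and -0.09 after median of ratios scaling.

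Summed over the 5 peroxiredoxins, the libraries held 1226, 1397 and 1552 TPM at 37°C and 1107, 853 and 1442 TPM at 26°C. Prdx3 made up 15.0%, 15.8% and 15.7% of this sum in the non-acclimated and 4.57%, 4.59% and 10.5% in the cold-acclimated libraries. Prdx6 made up 12.8%, 12.4% and 11.8% at 37°C and 19.2%, 24.6% and 15.5% at 26°C. The mean share of Prdx3 was therefore 15.5% ± 0.437 against 6.56% ± 3.42, and that of Prdx6 12.3% ± 0.510 against 19.8% ± 4.55 (SD, n = 3 each). The conditions did not overlap in the share of Prdx3 or of Prdx6, and they overlapped in those of Prdx1, Prdx2 and Prdx5. Prdx1 held the largest share in all 6 libraries, from 35.0% to 50.3%.

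**Figure D2:**
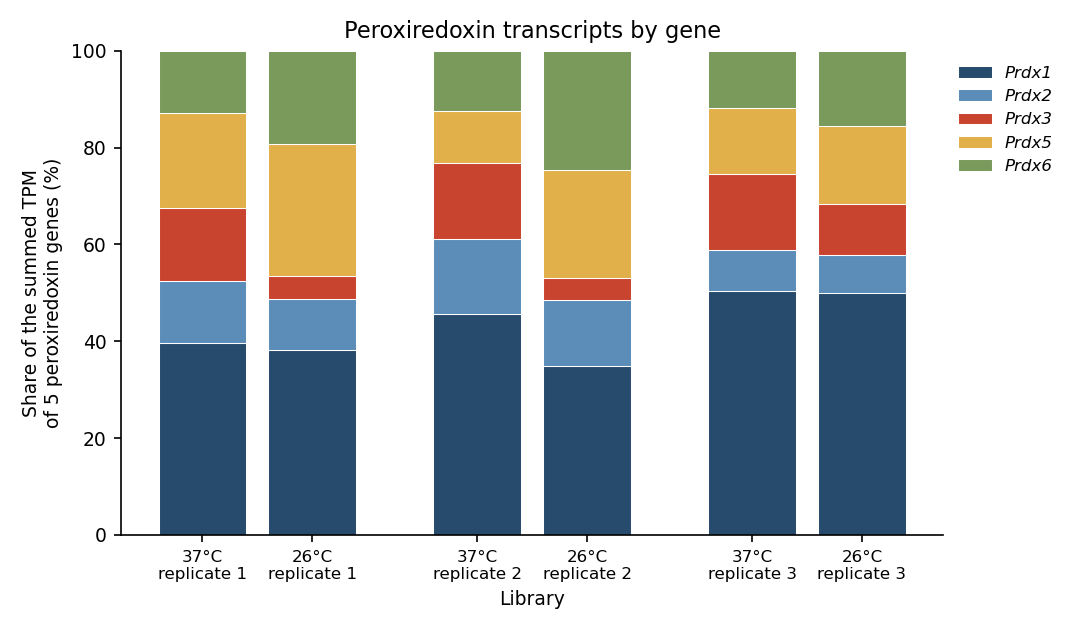
Share of each peroxiredoxin gene in the summed TPM of the 5 genes (%), 1 bar per library, with the 37°C and 26°C libraries of a replicate number side by side. The Prdx3 segment is 15.0% to 15.8% in the 37°C libraries and 4.57% to 10.5% in the 26°C libraries.

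The thioredoxin pair supplies electrons to the peroxiredoxins. Txn1, cytosolic thioredoxin, was at 846, 735 and 622 TPM at 37°C and 1076, 741 and 865 TPM at 26°C. The conditions overlapped, and the log2 fold change was 0.28 (SE 0.25, 95% confidence interval -0.30 to 0.85, limma adjusted p = 0.46). Txnrd1, the cytosolic selenoenzyme that reduces thioredoxin, was at 114, 156 and 219 TPM without and at 144, 149 and 214 TPM with cold acclimation. Replicate 3 was the highest in both conditions, and the values overlapped. Its log2 fold change of 0.08 (SE 0.30, 95% confidence interval -0.63 to 0.79, limma adjusted p = 0.88) changed sign when single libraries were left out, from -0.15 to 0.32.

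The promoters of Prdx1 and Txnrd1 are shown because both genes, like Sod1, hold the core of the antioxidant response element (TGACNNNGC), the motif of the stress-responsive factor Nrf2. Both are 250 bases from RefSeq on GRCm38.p6, and capitals mark this core, the GC box and the CCAAT box on either strand.
Prdx1 (chr4:116685349-116685598, plus strand): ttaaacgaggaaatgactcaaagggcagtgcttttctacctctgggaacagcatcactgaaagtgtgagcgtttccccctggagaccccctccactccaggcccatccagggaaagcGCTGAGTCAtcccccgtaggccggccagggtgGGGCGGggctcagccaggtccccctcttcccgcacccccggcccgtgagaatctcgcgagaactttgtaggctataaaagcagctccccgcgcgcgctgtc
Txnrd1 (chr10:82858956-82859205, plus strand): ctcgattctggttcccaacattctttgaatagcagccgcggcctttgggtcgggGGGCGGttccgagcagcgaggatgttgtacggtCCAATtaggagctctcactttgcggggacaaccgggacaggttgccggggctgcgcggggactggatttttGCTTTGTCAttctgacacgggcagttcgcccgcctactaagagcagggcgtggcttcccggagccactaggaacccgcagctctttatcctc
The core began 133 bases before the start in Prdx1, 92 in Txnrd1 and 56 in Sod1, each on the strand opposite to the gene. It was present in 10.2% of all promoters in the table. For Txnrd1 the table lists 3 start sites, of which the second is shown and is the only one with the core. An entry was found for 9 of the 10 genes, and Prdx6 had none. None of the 3 genes with the core passed the test in either direction.

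**Figure D3:**
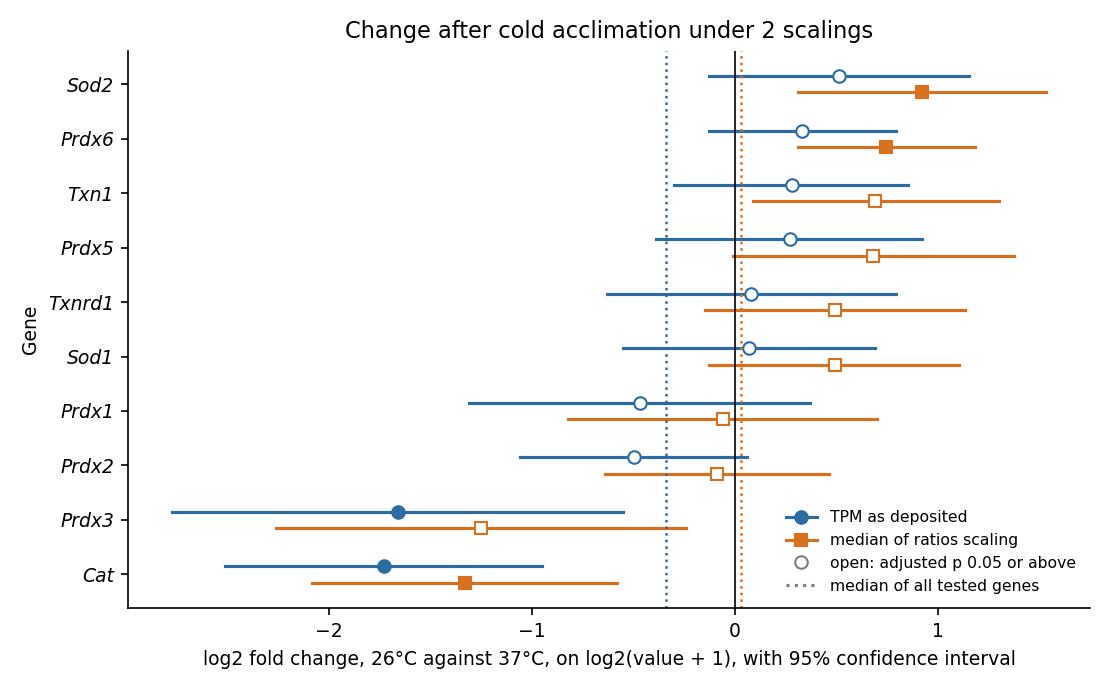
Log2 fold change of each gene, 26°C against 37°C, on log2(value + 1) with its 95% confidence interval, for TPM as deposited (blue circles) and after median of ratios scaling (orange squares), with filled symbols for an adjusted p under 0.05 in limma and dotted lines at the medians of all tested genes. Cat is filled under both scalings, Prdx3 with TPM as deposited alone, and Sod2 and Prdx6 after median of ratios scaling alone.

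The median log2 fold change of the 10 genes was 0.08, against -0.34 for all tested genes, and 0.49 against 0.03 after median of ratios scaling. Relative to all tested genes it was 0.41, but 0.14 without the filter on low values and 0.03 after quantile normalization. The members are abundant transcripts, with mean levels at percentiles 64.3 (Cat) to 99.0 (Sod1) of all tested genes. In the distribution of all tested genes, the log2 fold changes of Cat and Prdx3 stood at percentiles 6.8 and 7.7, those of Prdx2 and Prdx1 at 42.4 and 43.7, and those of Sod1, Txnrd1, Prdx5, Txn1, Prdx6 and Sod2 between 70.1 and 87.0. Together the 10 genes held 3478, 3233 and 3606 TPM in the non-acclimated and 3543, 2693 and 3928 TPM in libraries of cells kept at 26°C, which was 0.269% to 0.393% of all TPM. These sums overlapped between the conditions.

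In order of mean level, the genes ran Sod1, Txn1, Prdx1, Prdx5, Prdx6, Txnrd1, Prdx3, Prdx2, Sod2 and Cat. Within each library, Sod1 was above Txn1, Prdx1 above Prdx5 and Prdx2 above Sod2 in all 6 libraries, whereas the order of the other neighbours differed between libraries. Compared across libraries, most neighbours overlapped. The exceptions at 37°C were Prdx1 above Prdx5 and Prdx2 above Sod2. At 26°C they were Txn1 above Prdx1, Prdx2 above Sod2, and Sod2 above Cat. Sod2 and Cat overlapped at 37°C, where Cat was the higher of the pair in replicates 1 and 2.

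Ratios of 2 members within a library are not affected by scaling between libraries. For this reason 8 ratios were computed. They were chosen after the values were seen, in part by pairing genes that fell with genes that did not, so they are given as a description with no test. The level of Cat relative to Sod1 was 0.0594, 0.0715 and 0.0361 in the non-acclimated and 0.0155, 0.0124 and 0.0163 in the cold-acclimated libraries, a mean log2 difference of -1.87. Prdx3 relative to Prdx1 was 0.378, 0.345 and 0.311 at 37°C and 0.120, 0.131 and 0.211 at 26°C (mean log2 difference -1.21). Sod2 relative to Prdx3, the dismutase against the peroxiredoxin of the mitochondrial matrix, was 0.240, 0.226 and 0.303 without and 1.25, 2.28 and 0.555 with cold acclimation (mean log2 difference 2.20). Within replicates 1, 2 and 3 the log2 differences were -1.94, -2.52 and -1.14 for Cat relative to Sod1, and -1.65, -1.40 and -0.56 for Prdx3 relative to Prdx1, so the difference was smallest in replicate 3 for both.

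The mean log2 difference was -1.32 for Cat relative to Prdx1, 1.95 for Prdx5 relative to Prdx3 and 0.84 for Prdx6 relative to Prdx2. Sod2 relative to Sod1 was 0.0374, 0.0598 and 0.0669 at 37°C and 0.0555, 0.105 and 0.0646 at 26°C, with log2 differences of 0.57, 0.81 and -0.05 within replicates 1, 2 and 3. For Txnrd1 relative to Txn1 the differences within replicates were -0.01, -0.08 and -0.51. The ratios share genes and are not independent of each other.

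**Figure D4:**
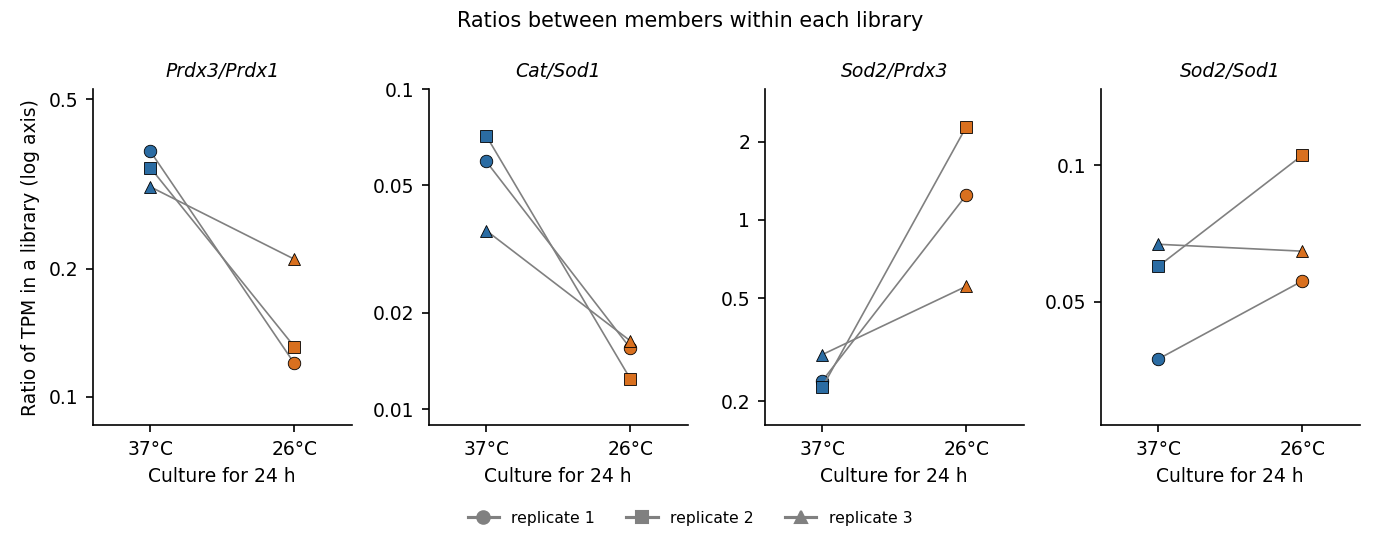
Ratio of the TPM of 2 genes within each library (log axis) at 37°C and 26°C, with a line joining the libraries of a replicate number. Prdx3/Prdx1 and Cat/Sod1 are lower and Sod2/Prdx3 is higher at 26°C in all 3 replicates, whereas Sod2/Sod1 overlaps between the conditions.

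Some member genes share sequence with other sites in the genome, where reads can be split or lost in counting. The canonical transcript of Prdx1 had 2 further sites at 95% identity or more over at least 150 bases, the best at 98.3% on chromosome 8 (129979406 to 129980820), and Sod2 had 1 of 98.8% over 3230 bases on chromosome 17 (13992378 to 13995617). Prdx2, Prdx5 and Sod1 had 1 such site each, at 96.5%, 99.4% and 97.1%. That of Prdx5 covered 278 of 1580 transcript bases and lies in Trmt112-ps2, a processed pseudogene. The searched transcripts differ in length from the gene models behind the values, for example 5315 against 637 bases for Sod1. Matched bases may therefore lie outside what was counted, and an effect on the values of these 5 genes was not tested. For Prdx6, Txn1 and Prdx3 the best other site reached 91.5%, 93.0% and 82.0%. On GRCm39, Prdx1 (116542796 to 116557196, plus strand, 6 exons) and Txn1 (57943373 to 57956411, minus strand, 6 exons) lie on chromosome 4, Prdx2 on chromosome 8 (85696251 to 85701440, plus strand, 6 exons) and Prdx5 on chromosome 19 (6884065 to 6887474, minus strand, 6 exons). Prdx6 lies on chromosome 1 (161067682 to 161078780, minus strand, 5 exons), Txnrd1 on chromosome 10 (82669785 to 82733558, plus strand, 14 exons), Sod1 on chromosome 16 (90017650 to 90023221, plus strand, 5 exons) and Sod2 on chromosome 17 (13226726 to 13237006, plus strand, 5 exons). Annotated genes on the opposite strand overlap several of them, among them Rnaseh2a and Junb at Prdx2, Trmt112 at Prdx5, Scaf4 at Sod1 and the noncoding Gm75342 at Cat, and Eid3 overlaps Txnrd1 on the same strand. The strand setting of the counting is not given in the sources used here.

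Likeness to the pattern of Cat and of Sod1, the gene with the largest change and the gene with the highest level, was measured as Pearson's r of log2(TPM + 1) over the 6 libraries among 9740 genes with a mean of at least 5 TPM. The 3 genes most like Cat were Gm52116 (r = 0.998), Capn1 (r = 0.9976), the protease calpain-1, and Coq10a (r = 0.9966), a coenzyme Q binding protein. Capn1 was at 123, 103 and 82.2 TPM in the non-acclimated and 44.6, 31.0 and 47.4 TPM in libraries of cells kept at 26°C. The genes most like Sod1 were Elob (r = 0.9781), a subunit of elongin, Pfkp (r = 0.9776), a phosphofructokinase, and Avil (r = 0.9599), an actin-binding protein. Avil was at 136, 4.06 and 191 TPM at 37°C and 101, 5.02 and 211 TPM at 26°C, so that replicate 2 was its lowest library in both conditions, as for Sod1. These correlations are over 6 libraries that share replicate numbers and were picked as the highest of many.

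Other genes of the antioxidant system were taken from 8 lists with 65 genes, of which 52 were tested and 5 were listed at 0 in all libraries. Of the 52, 3 were called higher and 6 lower, where 3.3% and 17.4% of all tested genes were called, with a median log2 fold change of -0.22 against -0.34 for all tested genes. After median of ratios scaling 6 were higher and 3 lower (8.64% and 9.32% of all tested genes). With the replicate number as a term in the fit 4 were higher and 13 lower, where 6.89% and 29% of all tested genes were called. The same shares stand beside the counts of each list below. For list genes without overlap between the conditions, the shares of all tested genes were 31.4% lower and 9.69% higher.

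Of 7 tested genes beside the members in the thioredoxin system, 2 fell and none rose (median log2 fold change 0.01). Srxn1, sulfiredoxin, which repairs overoxidized peroxiredoxins, was at 19.6, 23.2 and 16.3 TPM without and 11.6, 7.36 and 3.48 TPM with cold acclimation. Its log2 fold change was -1.40 (SE 0.40, limma adjusted p = 0.045), and the call was lost after median of ratios scaling (-1.02, limma adjusted p = 0.13). Nxn, nucleoredoxin, a thioredoxin relative, was at 38.9, 44.0 and 35.0 TPM and then 16.5, 10.3 and 20.3 TPM. It had a log2 fold change of -1.31 (SE 0.29, limma adjusted p = 0.022), and of -0.92 after median of ratios scaling (limma adjusted p = 0.0525). The conditions did not overlap for either gene, where 31.4% of all tested genes were lower without overlap.

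Txnip, which binds thioredoxin and inhibits it, was at 238, 190.1 and 89.0 TPM in the non-acclimated and 282, 660.2 and 369 TPM in libraries of cells kept at 26°C. All cold-acclimated values were above the non-acclimated ones, but the log2 fold change of 1.36 did not pass with TPM as deposited (SE 0.45, limma adjusted p = 0.068), and passed after median of ratios scaling (1.77, limma adjusted p = 0.039) and with the replicate number as a term (limma adjusted p = 0.027). Txn2, the thioredoxin of mitochondria and hence the partner of Prdx3, was at 112, 136 and 319 TPM at 37°C and 121, 136 and 305 TPM at 26°C (log2 fold change 0.01, SE 0.49, limma adjusted p = 0.99). Here replicate 3 was far above the others in both conditions, by 1.36 and 1.25 on the log2 scale. Prdx4, the peroxiredoxin of the endoplasmic reticulum, named after its values were seen, did not exceed 0.565 TPM in any library and was not tested.

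None of the 3 tested genes of the list for superoxide production and dismutation passed the test (median log2 fold change -0.24). Cyba, a membrane subunit of NADPH oxidase, was at 356, 483 and 329 TPM at 37°C and 319, 337 and 319 TPM at 26°C (log2 fold change -0.24, limma adjusted p = 0.49). Ncf4, a cytosolic subunit, had a log2 fold change of -0.79 (limma adjusted p = 0.20), and passed with the replicate number as a term (limma adjusted p = 0.021). After median of ratios scaling it was -0.38 and did not pass (limma adjusted p = 0.49, and 0.13 with that term). Sod3, the extracellular dismutase, also named after its values were seen, was listed at 0 in all libraries.

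In the glutathione system, 1 of 11 tested genes rose and none fell (median log2 fold change -0.19). Gclc, the catalytic subunit of the enzyme that limits glutathione synthesis, was at 54.2, 61.3 and 83.4 TPM without and 151, 154 and 104 TPM with cold acclimation. The conditions did not overlap, and the log2 fold change was 1.03 (SE 0.27, limma adjusted p = 0.034) and 1.44 after median of ratios scaling (limma adjusted p = 0.020). Gclm, the other subunit of that enzyme, named after its values were seen, did not rise with it. Its log2 fold change was -0.47 (limma adjusted p = 0.37), and -0.06 after median of ratios scaling. The abundant peroxidases Gpx1 and Gpx4 had log2 fold changes of -0.19 and -0.33, with adjusted p of 0.63 and 0.52 in limma.

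Of 8 tested genes for NADPH supply, 2 fell and none rose (median log2 fold change -1.0). Idh1, the cytosolic isocitrate dehydrogenase that makes NADPH, was at 34.6, 69.0 and 10.6 TPM in the non-acclimated and 3.70, 5.61 and 4.78 TPM in libraries of cells kept at 26°C. Its values varied widely at 37°C but did not overlap, and the log2 fold change was -2.45 (SE 0.60, limma adjusted p = 0.029). Nadk2, the mitochondrial NAD kinase, was at 22.5, 30.1 and 26.1 TPM and then 7.11, 10.2 and 12.7 TPM (log2 fold change -1.33, SE 0.28, limma adjusted p = 0.019). Both also passed after median of ratios scaling, with adjusted p of 0.0497 and 0.042 in limma. With voom on the recovered reads Nadk2 passed and Idh1 did not (adjusted p of 0.043 and 0.085 in limma). Neither Idh1 nor Nadk2 passed after quantile normalization (adjusted p of 0.08 and 0.07 in limma). The 2 genes of this list with the highest levels, Pgd and G6pdx of the pentose phosphate pathway, had log2 fold changes of -0.63 and -0.18 and did not pass (adjusted p of 0.28 and 0.75 in limma). With the replicate number as a term 5 of the 8 fell, where 29% of all tested genes were called lower. The others were Nadk, Nnt and Idh2, named after their values were seen (adjusted p of 0.0083, 0.017 and 0.0467 in limma). Of these 3, Nadk alone also passed when that term was combined with median of ratios scaling (limma adjusted p = 0.017).

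Of 12 tested genes in the list for Nrf2 control and targets, 2 rose and none fell (median log2 fold change 0.29). Both were small Maf proteins, which pair with Nrf2 or with its competitor Bach1 on the antioxidant response element. Mafk was at 19.5, 23.8 and 37.2 TPM at 37°C and 64.3, 107 and 93.5 TPM at 26°C (log2 fold change 1.70, SE 0.32, limma adjusted p = 0.014). Maff was at 3.78, 1.48 and 2.1 TPM and then 11.1, 9.98 and 6.45 TPM (log2 fold change 1.58, SE 0.35, limma adjusted p = 0.022). Neither gene overlapped between the conditions, and both passed after median of ratios scaling (adjusted p of 0.011 and 0.020 in limma).

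Park7 and Sqstm1, with the highest levels of that list, had log2 fold changes of 0.07 and 0.31 (adjusted p of 0.91 and 0.30 in limma), and Sqstm1 passed after median of ratios scaling (limma adjusted p = 0.0482). Named after its values were seen, Nfe2l2, the gene of Nrf2 itself, was at 24.3, 28.8 and 28.0 TPM without and 15.9, 17.5 and 14.9 TPM with cold acclimation. Its log2 fold change of -0.71 did not pass (limma adjusted p = 0.056) but did with the replicate number as a term (limma adjusted p = 0.040). After median of ratios scaling it was -0.32 (limma adjusted p = 0.34, and 0.26 with that term). Hmox1, heme oxygenase and a known Nrf2 target, also named after its values were seen, was at 36.5, 37.9 and 39.7 TPM and then 64.4, 51.6 and 60.0 TPM. It had a log2 fold change of 0.61 (limma adjusted p = 0.075), which passed after median of ratios scaling (limma adjusted p = 0.021).

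FoxO transcription factors are known regulators of antioxidant genes, catalase and Sod2 among them, in several cell types. Of 3 tested genes in the list for FoxO control, 1 fell and none rose (median log2 fold change -1.19), and none passed after median of ratios scaling. Foxo4 was at 14.1, 26.8 and 11.9 TPM without and 4.24, 7.60 and 6.90 TPM with cold acclimation, without overlap (log2 fold change -1.31, SE 0.37, limma adjusted p = 0.044, and 0.10 after median of ratios scaling). Foxo3 had a log2 fold change of -1.19 (limma adjusted p = 0.060), which passed with the replicate number as a term (limma adjusted p = 0.022) but not when median of ratios scaling was added (0.081). Foxo1, the most abundant of the 3, had a log2 fold change of 0.53 (limma adjusted p = 0.46).

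Txnrd1 is a selenoprotein, and 1 of 6 tested genes for selenoprotein synthesis fell while none rose (median log2 fold change -0.34). Eefsec, the elongation factor that delivers selenocysteine to the ribosome, was at 31.1, 37.8 and 28.3 TPM at 37°C and 3.59, 3.11 and 11.4 TPM at 26°C. The conditions did not overlap, and the log2 fold change was -2.43 (SE 0.44, limma adjusted p = 0.013) and -2.06 after median of ratios scaling (limma adjusted p = 0.020). Sephs2 and Sephs1, which are named for selenophosphate synthetase, had log2 fold changes of -0.53 and -0.43 (adjusted p of 0.22 and 0.26 in limma). In the list for methionine sulfoxide repair, neither tested gene passed (median log2 fold change -0.43), with log2 fold changes of -0.97 for Msrb1 and 0.11 for Msra (adjusted p of 0.15 and 0.89 in limma). Msrb1 passed with the replicate number as a term (limma adjusted p = 0.0459), and not when median of ratios scaling was added (0.15).

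**Figure D5:**
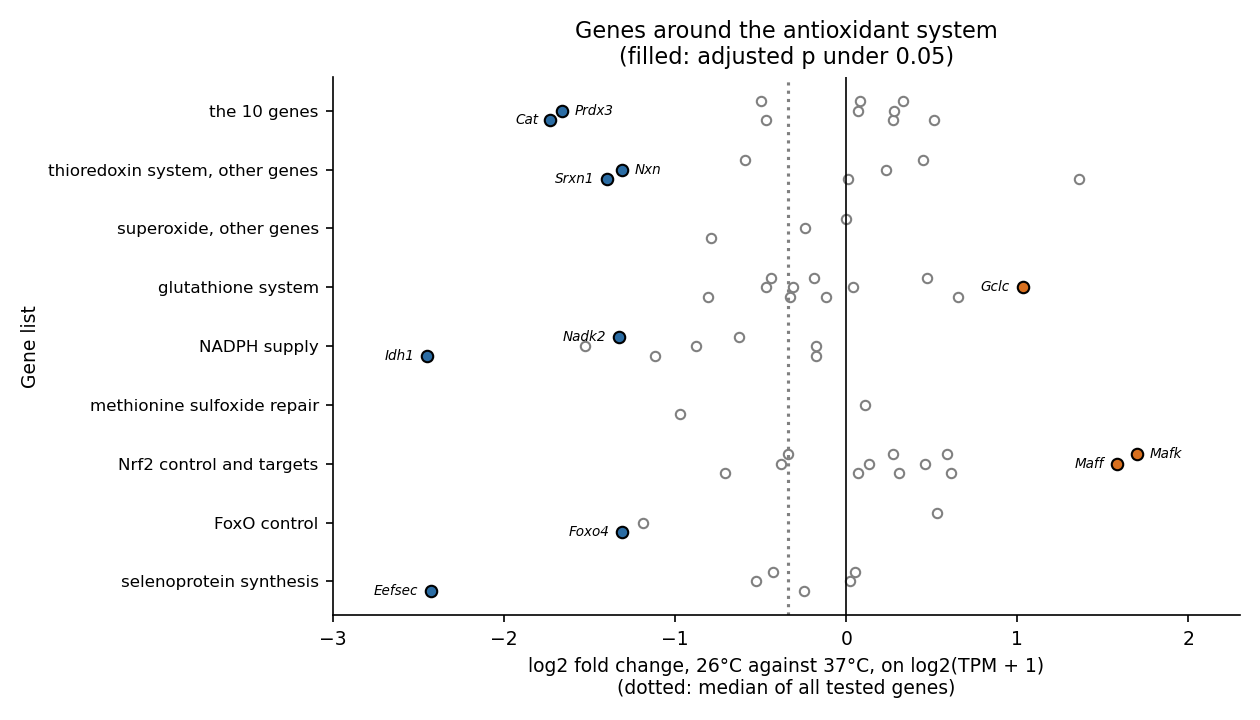
Log2 fold change, 26°C against 37°C, on log2(TPM + 1) of the 10 genes and of the 52 tested genes of 8 lists around the antioxidant system, 1 circle per gene, with filled and named circles for an adjusted p under 0.05 in limma and a dotted line at the median of all tested genes (-0.34). The filled circles are 3 genes that rose (Gclc, Maff and Mafk) and 8 that fell, among them Cat and Prdx3.

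The calls of all 9 genes named from the lists were lost in some fits with 1 library fewer. Of 6 such fits, Srxn1 passed in 1, Nxn, Gclc, Idh1, Nadk2 and Foxo4 in 2, and Maff, Mafk and Eefsec in 3. Calls of Nxn, Gclc, Idh1, Nadk2 and Foxo4 ended without non-acclimated replicate 1 or 2 or cold-acclimated replicate 1 or 2, with limma adjusted p of 0.058 to 0.14. Srxn1 lost its call without any of these and without non-acclimated replicate 3. Maff lost it without non-acclimated replicate 2 or cold-acclimated replicate 1 or 2, Mafk without non-acclimated replicate 1 or 2 or cold-acclimated replicate 2, and Eefsec without non-acclimated replicate 1 or 2 or cold-acclimated replicate 1. Without replicate 3 in both conditions all 9 passed, with limma adjusted p between 0.0035 and 0.034.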

How the data were processed

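Poly(A)+ RNA of D10 cells was sequenced in paired-end, strand-specific libraries from 3 replicates per condition. The values used are TPM as deposited: the authors used HISAT2 for alignment to GRCm39, featureCounts for the counts per gene and DESeq2 for their test, and kept replicates separate. The submitters' processing notes list FastQC 0.11.7, Trimmomatic 0.38, HISAT2 2.1.0 and featureCounts 1.6.3. The release of the annotation, the lengths and the strand setting behind the values were not given in the sources used here. The culture medium is named differently in the labels (RPMI) and in the study's methods (DMEM).

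Each library's TPM sums to the same total, so a change in a few abundant genes shifts all others. The study's methods name median of ratios scaling, whereas the main fit here took TPM as deposited and used that scaling as an alternative. With that scaling in limma, Prdx3 was not called, Cat was called lower, and Sod2 and Prdx6 were called higher. The count model of the study's methods was replaced by limma 3.58.1 (R 4.3.3, with a mean-variance trend) on log2(TPM + 1), which understates changes of low genes. No replicate term was used, over the 12227 genes whose mean TPM was 1 or more, and p-values were adjusted by Benjamini-Hochberg over all of them. They measure the spread between 3 replicates of 1 cell line. The reads behind the TPM were recovered because a gene's values are whole multiples of what 1 read is worth. For 100% of the 21195 genes above 0 in any library the recovered reads were whole within 1e-06, and 901 genes needed a common factor. The lowest count, 243 reads for Cat, gives a counting error of 6.42%, which covers counting alone.

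The libraries' deviations from their condition means correlated at 0.48, 0.50 and 0.51 across genes where the number was shared, and lay between -0.41 and 0.02 where it was not. By this check of the data, with 3 pairs each above 0.1, the numbers pair the libraries. The main fit has no replicate term, so differences between replicate numbers enter its error. The SE of Prdx3 was 0.48 without and 0.34 with the term, and that of Cat 0.34 and 0.32. A gene that did not pass in the main fit can therefore pass with the term. The members and lists were chosen with earlier results of these data known. Every member is named, as are the list genes called over all tested genes and the 2 of each list with the highest mean TPM. Any other gene is marked in the text as chosen after its values were seen. A single marker gene is not reported here.

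The fits and the recovery of reads were tested on simulated data. Of 200 genes changed by 2 on the log2 scale, the main fit called 199, and it called 8 others. The simulated libraries held no differences between replicate numbers. The simulation therefore does not show how the fits handle the differences between replicates in these data. Alternatives were a pseudocount of 0.1, no filter, median of ratios scaling, quantile normalization, a replicate block, leaving out each library, leaving out replicate 3, and voom on the recovered reads. Median of ratios scaling with the replicate block and the within-library ratios were added after the data were seen. Near-identical sites were searched with minimap2 2.31 on GRCm39 with GENCODE M39 transcripts. Promoters are those of RefSeq on GRCm38.p6, matched by symbol. Python 3.11.15 was used for all other values, with scipy 1.17.1, pandas 2.3.3 and numpy 2.4.6, and matplotlib 3.10.9 for the plots.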

Additional observations from a re-analysis of the deposited data

How the results depend on the processing

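No member was called higher with TPM as deposited, against 2 after median of ratios scaling (Prdx6 and Sod2), 2 with voom on the recovered reads, and 4 (Prdx5, Prdx6, Txn1 and Sod2) when median of ratios scaling was combined with the replicate block, a choice made after seeing the data. With a log2 fold change of at least 1 also required, none was called higher under any of these. The 2 members called lower became 1 without the filter on low values, after median of ratios scaling and with voom, both without and with the fold change threshold, and 0 to 2 when single libraries were left out. In the fit with the replicate block, Cat (adjusted p = 0.010 in limma) and Prdx3 (adjusted p = 0.013 in limma) were called lower, and the pairing changed no call of a member with TPM as deposited. The median log2 fold change of the members was 0.49 after median of ratios scaling, with voom and with median of ratios scaling plus the replicate block, and -0.08 to 0.20 with 1 library fewer. Relative to all tested genes it was 0.41, and 0.14 without the filter, 0.03 after quantile normalization and 0.31 to 0.52 with 1 library fewer. Signs reversed for Sod1 (-0.01 after quantile normalization, -0.01 without replicate 3 in both conditions, -0.08 to 0.24 with 1 library fewer) and for Txnrd1 (-0.15 to 0.32 with 1 library fewer), neither of them called. The cause of these changes was not tested. Of 140 values of single members over 14 alternatives, 114 kept their direction and side of the threshold, 12 lost and 8 gained a call, and 6 changed sign. All 12 losses were of Prdx3 and Cat, the 2 members that had a call to lose. The other members could keep their side only by staying uncalled, so the pooled count does not measure how stable the calls are.

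Over all genes, 404 were called higher and 2123 lower. These counts were 1361 lower without the filter, 1056 and 1140 after median of ratios scaling, 846 and 832 after quantile normalization, 843 and 3547 with the replicate block, 975 and 1147 with voom, 838 and 3480 without replicate 3 in both conditions, and 2064 and 2067 with median of ratios scaling and the block. With 1 library fewer they ranged from 59 to 580 higher and from 345 to 2996 lower. With 3 libraries per condition and TPM as deposited, the 95% confidence intervals of members that were not called ran, for example, from -0.13 to 0.79 for Prdx6 and from -1.31 to 0.37 for Prdx1 on the log2 scale.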

Other observations

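Across the 6 libraries, the levels of some members moved with each other. Pearson's r of log2(TPM + 1) was 0.88 for Prdx1 and Prdx3, 0.86 for Prdx3 and Cat, 0.84 for Prdx6 and Sod2, and 0.81 for Prdx2 and Cat. It was -0.89 for Prdx6 and Cat and -0.83 for Sod2 and Cat. The 6 points share conditions and replicate numbers, the highest values were picked out of all pairs of members, and no test was made.

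The genes differed in how replicate 3 stood to replicates 1 and 2. Its library was the highest of its condition at both temperatures for Prdx1, Prdx3, Prdx6 and Txnrd1. For Cat it was the lowest library at 37°C, by 0.70 below the mean of replicates 1 and 2 on the log2 scale, and the highest at 26°C, by 0.59 above it. The log2(TPM + 1) difference of Cat between the conditions was -1.93 and -2.39 in replicates 1 and 2 and -0.87 in replicate 3.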
